A study of Mus musculus with 3 samples.

Results

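The 9 regulators described here bind mRNAs and control their translation, and were followed in ribosome profiling data from mouse cortical neurons. They are the fragile X protein gene Fmr1 and its paralogs Fxr1 and Fxr2, the 4 cytoplasmic polyadenylation element binding protein genes Cpeb1, Cpeb2, Cpeb3 and Cpeb4, the Pumilio gene Pum2, and Caprin1. The genes were chosen as a list of symbols and are 9 of the 20823 genes with a CDS flanked by both UTRs in the tables. For each gene the longest annotated transcript was used. In ribosome profiling, the stretch of mRNA shielded by a ribosome is sequenced. The neurons were primary cultures from the cortex of CD-1 mouse embryos, with no genetic change named, and 3 dishes were pooled for each library. There was 1 library per treatment. WT neurons were untreated, cycloheximide was given for 2 min to the Chx neurons, and the Harr neurons had harringtonine for 2 min and then a cycloheximide pulse. Cells of all 3 libraries were rinsed and lysed in buffers with cycloheximide at 100 μg/ml, so WT was also exposed to that drug, from the rinse on. Cycloheximide stops elongating ribosomes where they are. Harringtonine holds ribosomes that have just started at a start codon, while those already elongating move on and leave the mRNA. With 1 library per treatment no difference between treatments could be tested, and all intervals given are 95% counting intervals for these libraries. The 3 pairs of libraries also share members, so their values are not independent of each other.

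FMRP, the product of Fmr1, and its paralogs FXR1P and FXR2P bind RNA through KH domains. FMRP is known for repressing the translation of synaptic mRNAs on polyribosomes, and silencing of Fmr1 causes fragile X syndrome in people. CPEB proteins bind a U-rich element in 3′ UTRs and control the length of the poly(A) tail, and through it the translation of stored mRNAs in oocytes and at synapses. Pumilio proteins bind another short 3′ UTR element and mostly repress or destabilise the mRNA. Caprin1 joins G3bp1 in RNA granules, which in neurons travel into dendrites.

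Reads were counted in the deposited tables at their 5′ end, so a ribosome at a start codon is counted a little upstream of it, in the 5′ UTR or in the preceding exon piece. The start codon contexts therefore come first, each with 20 bases before the codon where the transcript has them, the codon in capitals and 7 bases after it (GENCODE transcripts, mm10).

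Fmr1 at chrX:68678817-68678819, + strand: gcgcgaggacggacgagaagATGgaggagc
Fxr1 at chr3:34020113-34020115, + strand: gcagcctttgcggttccaacATGgcggagc
Fxr2 at chr11:69633318-69633320, + strand: tcggaggtggtggcggcgccATGggcggcc
Fxr2, in-frame GTG at chr11:69633093-69633095, + strand: cggcggccgtttccctcacgGTGgcggaga
Fxr2, in-frame GTG at chr11:69633180-69633182, + strand: tcggctgtagcagggccgccGTGgggccgg
Cpeb2 at chr5:43233463-43233465, + strand: cgcggccgccggcctgataaATGcgggact
Cpeb3 at chr19:37174972-37174974, − strand: agcaacaagctgcgcaaaccATGcaggatg
Pum2 at chr12:8698109-8698111, + strand: ctgtttgatctgtggatgaaATGaatcatg
Caprin1 at chr2:103796938-103796940, − strand: agcggctccgcgcgcgcacgATGccctcgg

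The Fxr1 line is from a transcript with a 170-nt 5′ UTR, since the longest Fxr1 transcript has only 5 nt before the same ATG. The Cpeb2 line is from a transcript that shares the 5′ UTR and start codon of the one counted. Fmr1 and Fxr1 were alike after the ATG, with 6 of the 7 bases equal. Only 3 of those 7 bases after the annotated ATG of Fxr2 equalled those of Fxr1. After the upstream GTG of Fxr2 at position −225, 6 of 7 equalled those after the Fxr1 ATG and 5 of 7 those after the Fmr1 ATG. After the GTG at −138, 3 of 7 equalled those after the Fxr1 ATG and 3 of 7 those after the Fmr1 ATG. Positions are counted from the first base of the annotated start codon. The 2 GTG codons of Fxr2 are shown because the reads of its 5′ UTR, described below, stood apart. The 5′ UTR of Pum2 holds 2 short upstream frames, one from an ATG at −242, with the letters ATGttgttgtga, and one from an ATG at −5, overlapping the start codon, with the letters ATGaaatga. Cpeb3 has upstream ATG codons at −75 and −41, both on the exon before the start exon, and the other 7 genes have none on the transcripts used. An upstream ATG was present in 55.5% of 20649 genes with a 5′ UTR sequence.

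The libraries held 30219197 (WT), 35722483 (Chx) and 9754412 (Harr) reads, of which the 9 genes took 21272, 23328 and 6544 reads, so that Harr values are the least precise. Over all genes the 5′ UTR held 6.14% of reads in WT, 8.71% in Chx and 33.5% in Harr. Summed markers of neurons were at 3879 to 5571 reads per 1000000 with all 8 detected in each library. Markers of astrocytes were at 78.8 to 213 reads per 1000000 and of interneurons at 475 to 999, while the 4 microglial, 4 oligodendrocyte and 2 endothelial markers summed to under 7 reads per 1000000 each, and 3 collagen genes of stromal cells to 11.7 to 13.8. Every one of these sums was lowest in Harr, where the CDS took 62.4% of reads, against 91.7% in WT and 89.6% in Chx. Mog and Mobp, which mark oligodendrocytes, were at 0 in every library. The part of these other cells in the levels below was not tested. With footprints of mixed cells alone, fewer ribosomes per mRNA, less mRNA per cell and fewer cells of a type cannot be told apart.

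Footprints on the CDS of these genes spanned a wide range of levels. Caprin1 was the highest in every library, at 126 RPKM in WT (reads per kilobase and per 1000000 reads of the library, interval 124 to 129), 114 in Chx and 83.2 in Harr. Cpeb1 was the lowest, at 2.71 RPKM in WT (2.28 to 3.20), 2.13 in Chx and 1.70 in Harr, from 138, 128 and 28 reads. The other 7 genes lay between 15.6 and 37.4 RPKM in WT, above the median of 11.7 RPKM over the 11459 genes with at least 100 CDS reads. Among them Cpeb3 was highest in WT at 37.4 RPKM and in Chx at 33.7, and had 29.9 in Harr. Pum2 had 27.8, 27.8 and 32.4 RPKM, with an interval that overlapped that of Cpeb3 in Harr, Cpeb4 26.6, 23.6 and 23.7, Fxr2 26.1, 20.0 and 25.5, Fxr1 24.5, 25.1 and 16.8, and Fmr1 22.4, 23.3 and 22.8 in the same order of libraries. These 5 genes could be ordered only in part. In WT, genes next in rank were compared by the counting interval of their ratio. It did not settle the order of Pum2 and Cpeb4, of Cpeb4 and Fxr2, or of Fxr2 and Fxr1.

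Cpeb2 had 15.6 RPKM in both WT and Chx, the lowest of these 7 genes, and 25.5 RPKM in Harr, where its interval overlapped those of Fxr2 and Cpeb4. The ratio of its highest to its lowest level across libraries was 1.63, next to 1.59 in Cpeb1, which rests on few reads, and 1.04 in Fmr1. Per CDS reads of the library in place of all reads, the ratio was 2.39 in Cpeb2, 1.46 in Fmr1 and 1.02 in Fxr1, so the order of the other genes depends on the scale. Within the CPEB family the order in WT was Cpeb3, Cpeb4, Cpeb2 and Cpeb1. Of the 11459 genes with at least 100 CDS reads, 15.6% had a lower WT level than Cpeb1. Within the FXR family the 3 paralogs were within 22.4 to 26.1 RPKM in WT.

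**Figure D1:**
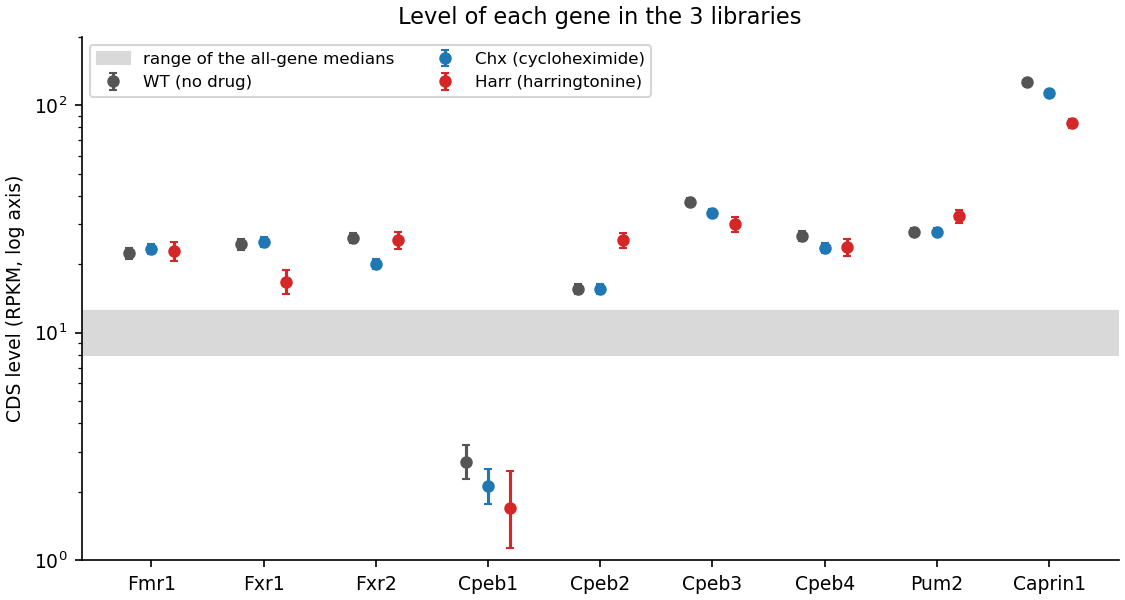
CDS level of each gene in the WT, Chx and Harr libraries, in RPKM on a log axis. Points are single libraries, bars are 95% Poisson intervals that cover counting error only, and the grey band is the range of the 3 medians over all genes. Caprin1 is far above the band, Cpeb1 below it, and Cpeb2 (25.5 RPKM) and, by less, Pum2 (32.4 RPKM) are higher in Harr than in both other libraries with intervals apart.

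The first comparison concerned reads of the 5′ UTR relative to the CDS, which harringtonine is used to enrich. For each gene the odds of a read lying in the 5′ UTR rather than the CDS were divided between 2 libraries, and are given as log2 odds ratios. A gene was called past 2-fold when this value was at least 1 in size, its counting interval left out 0 and each region had at least 10 reads in the pair. Between Harr and Chx, 6 of the 8 genes that could be compared were higher in Harr, beside 89.4% of 10723 genes, and their values were lower than typical, with a median of 1.38 against 2.46 over all genes. Caprin1 had the largest value at 2.89 ± 0.23 (counting SE, as in all ± values here), from 66 5′ UTR reads in Chx and 98 in the shallower Harr library. Pum2 was at 1.94 ± 0.14, Cpeb3 at 1.71 ± 0.28, Cpeb4 at 1.63 ± 0.58, Fmr1 at 1.14 ± 0.29 and Cpeb2 at 1.04 ± 0.35. Fxr1, at 0.13 ± 1.00, rested on few reads, since the 5-nt 5′ UTR of its longest transcript held 4, 12 and 2 reads in WT, Chx and Harr. Cpeb1 had 0, 0 and 3 5′ UTR reads and was not compared.

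Fxr2 went the other way. Its 328-nt 5′ UTR held 265 reads in WT, 321 in Chx and 45 in Harr, while its CDS held 1600, 1448 and 504. The 5′ UTR therefore took 14.2% of the gene's reads in WT (Wilson interval 12.7 to 15.8), 18.1% in Chx (16.4 to 20.0) and 8.12% in Harr (6.13 to 10.7). Per nucleotide, the 5′ UTR was as densely covered as the CDS in WT, at 1.02 times the CDS density, denser in Chx at 1.37 times, and at 0.551 times in Harr. The log2 odds ratio was −1.30 ± 0.24 between Harr and Chx, a call in the direction that 0.103% of genes took, and only 23 of 10723 genes had a lower value. Between Harr and WT it was −0.88 ± 0.24, which was not past 2-fold, with 30 of 10314 genes lower. The difference from Fmr1 was −2.44 (−3.18 to −1.69) for Harr against Chx and −1.91 (−2.67 to −1.15) for Harr against WT.

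Reads were also few in Harr just downstream of the annotated ATG of Fxr2. Its first coding segment, 81 nt long, held 34, 42 and 6 reads in WT, Chx and Harr, or 0.143 Harr reads for each Chx read, next to 0.140 in the 5′ UTR. Against the remaining CDS this segment was at −1.21 (−2.41 to −0.01) between Harr and Chx, with 10.4% of 5316 genes lower, and at −0.76 (−1.97 to 0.46) between Harr and WT, an interval that includes 0. The next 3 coding segments had 0.228, 0.171 and 0.172 Harr reads per Chx read, and the part of the CDS beyond them mostly more, up to 0.533. In the Harr library neither the 5′ UTR nor the first coding segment of Fxr2 was denser than the mean of its CDS. Positions inside a segment are not recorded in the tables, so where in the 328 nt the reads began is not known. All 25-base words of the Fxr2 5′ UTR and CDS were found in no transcript of another gene, and no annotated CDS overlapped the 5′ UTR on either strand.

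The Fxr2 5′ UTR is open in the frame of the CDS for 327 of its 328 nt, with no stop codon and no ATG. Among 5800 genes with a 5′ UTR of at least 300 nt, 8.10% were open in frame over at least 300 nt. In that frame stand 6 near-cognate codons (CTG, GTG, TTG or ACG), and the 2 printed above are those with A or G 3 bases before the codon and G directly after it. A start at the GTG at −225 would add 75 codons, and one at −138 would add 46. Such letters do not show where ribosomes started. Of the 374 open genes with a value for Harr against Chx, 18 were below 0 and the median was 2.00, while 98.6% of the 10723 genes were above 0 and their median was 2.46. Shorter open frames stood before other start codons of the list. Fmr1 was open in frame for 162 nt, with 5 near-cognate codons, 1 of them with those flanking letters. Caprin1 was open for 165 nt with 6 and Fxr1, on the 170-nt 5′ UTR, for 168 nt with 1, none with those letters.

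Fmr1 and Fxr1 offered a contrast within the family. The 276-nt 5′ UTR of Fmr1 held 61, 70 and 41 reads in WT, Chx and Harr, and its density relative to the CDS was 0.327, 0.304 and 0.667. Of the 25-base words of the Fmr1 5′ UTR, 18.8% also occur in transcripts of other genes, and where reads of those words were counted in these tables is not known. In Fxr1, the transcript with the 170-nt 5′ UTR had 27, 61 and 43 reads there, at 0.247, 0.463 and 1.59 times the density of its CDS. Its log2 odds ratio between Harr and Chx was 1.78, past 2-fold, unlike on the longest transcript. The first coding segment is 51 nt long in both genes and differed between them. It held 31, 61 and 47 reads in Fxr1, which is 5.63 times the CDS density in Harr, but 11, 29 and 3 reads in Fmr1, 0.264 times. The change of this segment against the remaining CDS between Harr and Chx was 2.30 ± 0.30 in Fxr1 and −1.19 ± 0.82 in Fmr1, with a difference of 3.49 (1.78 to 5.20). Over 637 genes with a first coding segment of 45 to 60 nt the median was 1.26, and 6.91% of them lay below Fmr1. Between Harr and WT the values were 3.01 ± 0.35 in Fxr1 and −0.12 ± 0.88 in Fmr1.

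**Figure D2:**
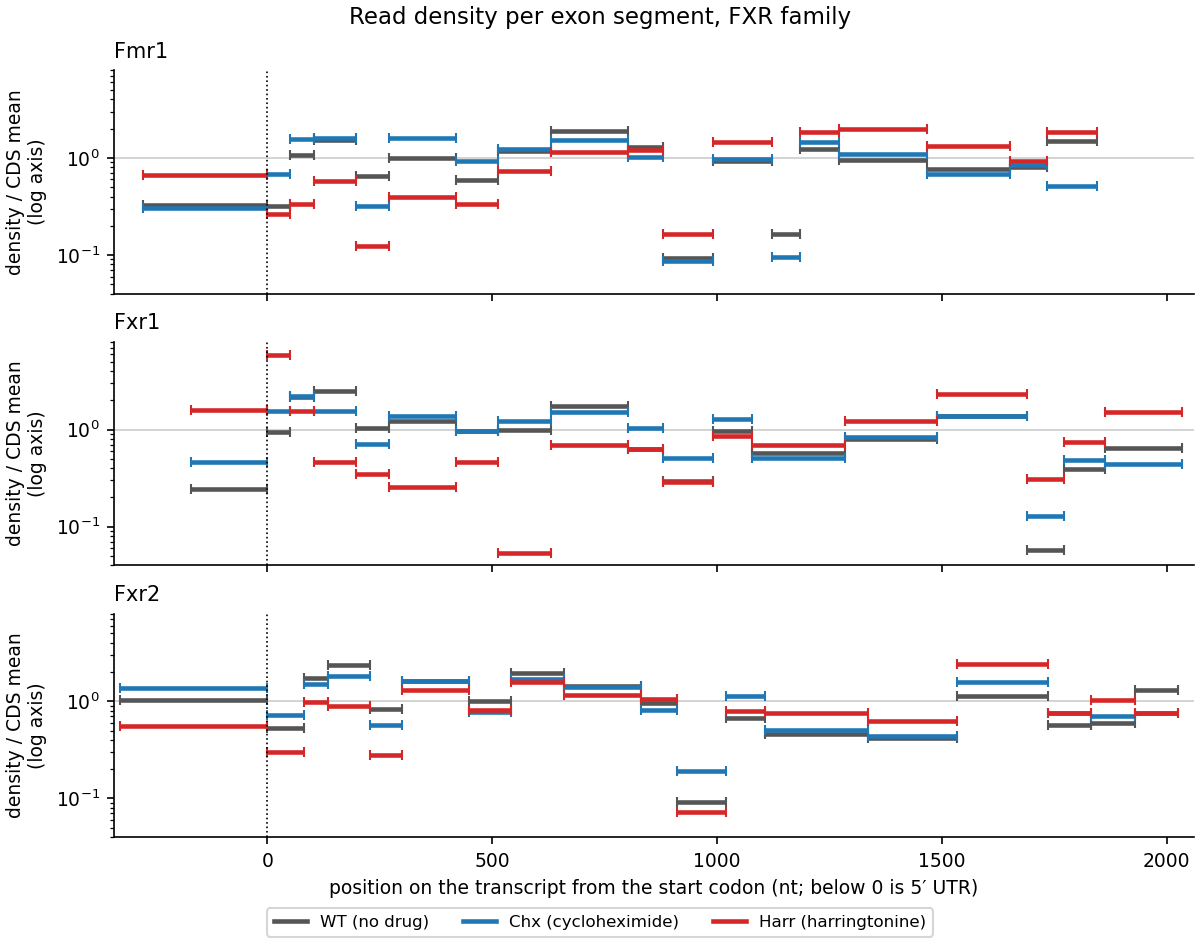
Read density of each exon segment of Fmr1, Fxr1 (transcript with the 170-nt 5′ UTR) and Fxr2, divided by the mean density of the gene's CDS in the same library (log axis), against position in nt from the annotated start codon. Each line spans 1 segment in 1 library, and segments without reads are not drawn. In Fxr2 the 5′ UTR line of Harr lies below those of WT and Chx, and in Fmr1 and Fxr1 above them.

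The start region of Pum2 held the densest segments of the 9 genes in Harr. The exon with the start codon holds the last 18 nt of the 5′ UTR and 51 coding nt. The 18-nt piece had 71, 131 and 152 reads in WT, Chx and Harr, which was 4.70, 7.33 and 26.7 times the density of the CDS. The 51 coding nt had 95, 217 and 259 reads, at 2.22, 4.29 and 16.0 times. The 257 nt of 5′ UTR on the upstream exon, which holds the ATG at −242, had 75, 97 and 128 reads, at 0.348, 0.380 and 1.57 times the CDS density. Reads from the frame at −5 and from the annotated start cannot be told apart in the piece next to the start codon, since that ATG lies within it.

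Cpeb3 showed a like concentration in a smaller piece. The last 11 nt of its 5′ UTR held 61, 40 and 41 reads, or 4.90, 3.02 and 12.8 times the CDS density in WT, Chx and Harr. The 168 nt upstream of it, on another exon, held 5, 22 and 8 reads. Restricted to that exon, the log2 odds ratio between Harr and Chx was 0.64, no longer past 2-fold, where it was 1.71 with the piece included. The value between Harr and WT was 2.58 there and 1.53 with the piece, and that between Chx and WT was 1.94, past 2-fold, where it was −0.18 with the piece. Caprin1 had 14, 66 and 98 reads in the 187 nt of its longest transcript, whose 5′ UTR ends at a splice site directly before the ATG. On the other transcript with all 3 regions, where a 164-nt 5′ UTR runs into the start exon, there were 158, 243 and 374 reads. The value between Harr and Chx was 2.94 there and 2.89 on the longest transcript. The value between Chx and WT was 0.53 there, no longer past 2-fold, against 2.11 ± 0.42 on the longest.

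Relative to WT, Harr was past 2-fold higher in 6 of 7 genes beside 94.3% of genes, and no gene was past 2-fold lower beside 0.136% of genes. The member median was 1.93 and the median over all genes 3.23. Caprin1 was at 5.00 ± 0.41 on the longest transcript and at 3.47 on the other one, Cpeb2 at 2.51 ± 0.50, Pum2 at 2.34 ± 0.16 and Fmr1 at 1.03 ± 0.30. Between Chx and WT only Cpeb2, at 1.47 ± 0.49 from 37 and 11 reads, and Caprin1 were higher in Chx, 2 of 8 genes beside 30.3% of genes. No gene was lower in Chx beside 1.09% of genes.

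**Figure D3:**
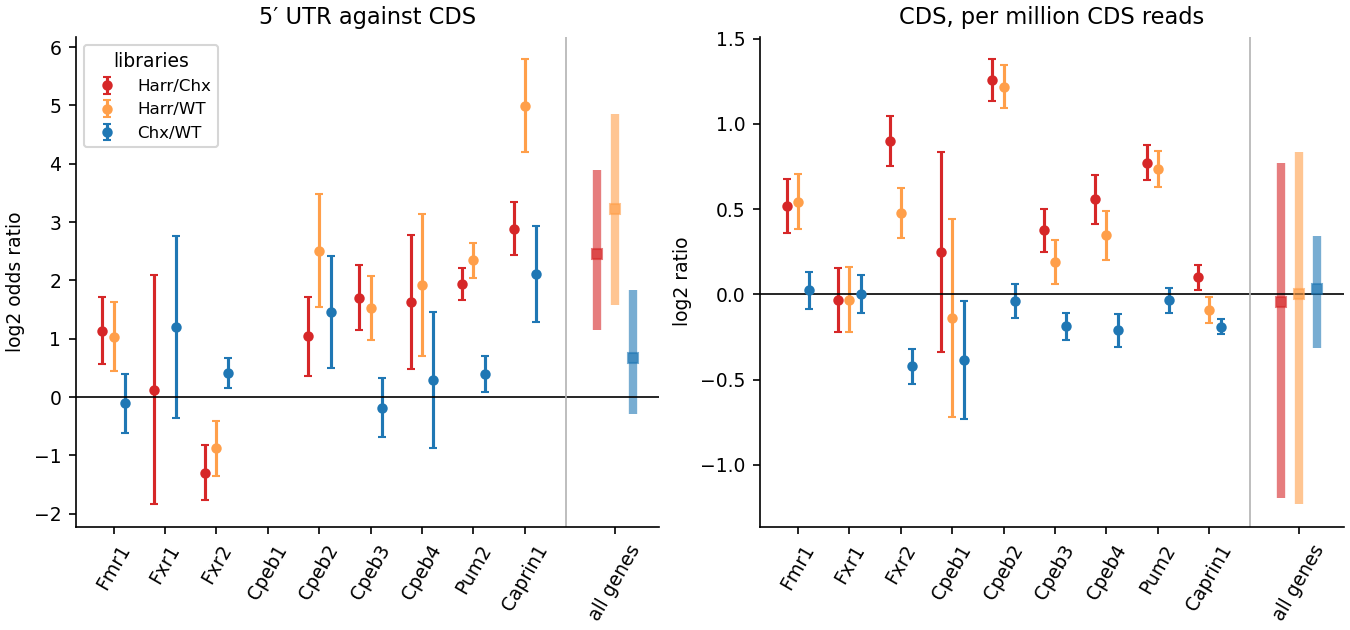
Left, log2 odds ratio of reads in the 5′ UTR to reads in the CDS for 3 library pairs, with 95% counting intervals, for the genes with enough reads. Right, log2 ratio between libraries of the gene's share of all CDS reads. Squares with thick bars give the median and the 10th to 90th percentile over all genes. Fxr2 is the one gene below 0 in the Harr pairs at left, and Cpeb2 has the highest CDS value at right.

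The second comparison concerned the CDS itself. In 2 min of harringtonine, ribosomes leave short CDSs more completely than long ones, so CDS reads per 1000000 CDS reads were compared beside genes of like length. Between Harr and Chx the 9 genes had a median log2 ratio of 0.52, against −0.05 over 11459 genes. Fxr1, at −0.03 ± 0.10, and Caprin1, at 0.10 ± 0.04, were nearest to 0. Cpeb1 was at 0.25 ± 0.30, Cpeb3 at 0.38 ± 0.06, Fmr1 at 0.52 ± 0.08, Cpeb4 at 0.56 ± 0.07, Pum2 at 0.77 ± 0.05 and Fxr2 at 0.90 ± 0.07. The median over 2649 genes with a CDS of 2000 to 4000 nt was 0.36, a class that holds Fxr2, Cpeb2, Cpeb3, Cpeb4, Pum2 and Caprin1, and over 3160 genes of 1200 to 2000 nt it was −0.07. Between Harr and WT the median of the 9 genes was 0.35, against 0.00 over all genes. There Fxr2 was at 0.48 ± 0.07, close to the median of 0.44 of its length class, Pum2 at 0.74 ± 0.05, Fmr1 at 0.54 ± 0.08, Cpeb4 at 0.35 ± 0.07 and Cpeb3 at 0.19 ± 0.06. Caprin1, at −0.09 ± 0.04, and Cpeb1, at −0.14 ± 0.30, had the opposite sign to that against Chx, and Fxr1 was at −0.03 ± 0.10. Scaling by all reads in the file headers instead lowers every Harr/Chx value by 0.55. Under it Fxr1, Caprin1, Cpeb1 and Cpeb3 lie below 0, and Fmr1 and Cpeb4 at about 0.

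Cpeb2 was the one gene past 2-fold. It had 1447 CDS reads in WT, 1708 in Chx and 762 in Harr, and its log2 ratio was 1.26 ± 0.06 for Harr against Chx and 1.22 ± 0.06 for Harr against WT. These are counts of 1 of 9 genes beside 5.74% and 6.21% of genes, and none was lower beside 12% and 12.7%. In the length class of Cpeb2 90% of genes lay below 0.91. With header scaling the Cpeb2 values were 0.71 and 0.71, no longer past 2-fold. Between Chx and WT no gene was past 2-fold in either direction, beside 0.684% of genes higher and 0.845% lower. The lowest value there was that of Fxr2, at −0.42 ± 0.05, with 4.96% of genes lower.

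Cpeb2 kept more reads than its paralogs in its first coding exon, which is 1626 nt long. This exon had 602, 815 and 293 reads in WT, Chx and Harr, or 0.360 Harr reads for each Chx read. The first coding exons of Cpeb3 and Cpeb4, 1008 and 1125 nt long, had 1316, 1470 and 165 reads and 1127, 1188 and 170 reads, or 0.112 and 0.143. Against the remaining CDS, the change between Harr and Chx was −0.55 ± 0.13 in Cpeb2, −1.88 ± 0.14 in Cpeb3 and −1.89 ± 0.15 in Cpeb4. Cpeb2 differed from Cpeb3 by 1.33 (0.95 to 1.71) and from Cpeb4 by 1.34 (0.95 to 1.73), while Cpeb3 and Cpeb4 differed by 0.01 (−0.40 to 0.42). The median of 193 genes with a first coding segment of at least 1000 nt was −0.81, with 64.8% of them below Cpeb2 and 7.77% and 7.25% below Cpeb3 and Cpeb4. The Cpeb2 exon is longer than the other two, and the part of its length in this difference was not tested.

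**Figure D4:**
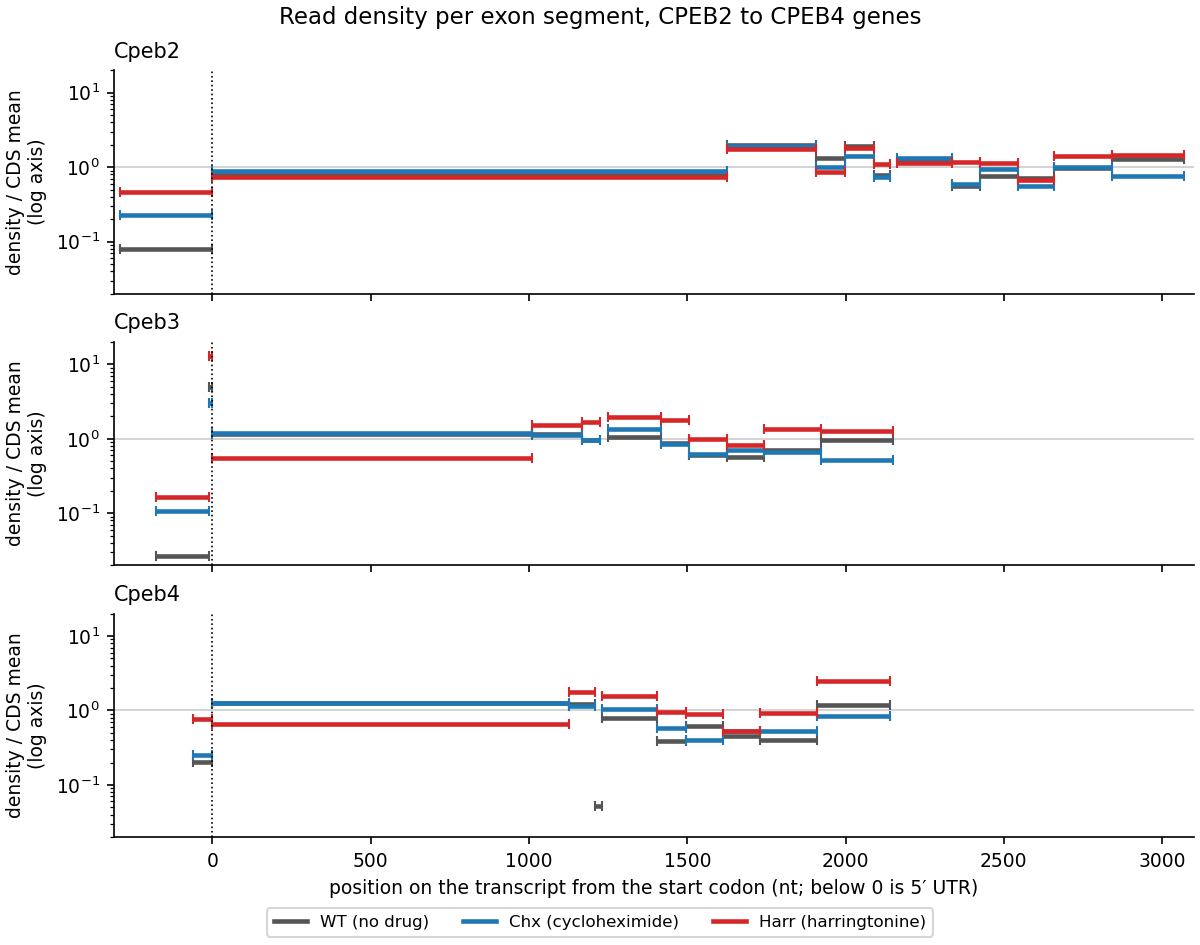
Read density of each exon segment of Cpeb2, Cpeb3 and Cpeb4 relative to the CDS mean of the same library (log axis), against position in nt from the start codon. Each line spans 1 segment in 1 library, and segments without reads are not drawn. The Harr line of the long first coding exon lies below those of WT and Chx in Cpeb3 and Cpeb4 and close to them in Cpeb2, and the 11-nt piece before the Cpeb3 start codon stands at 12.8 in Harr.

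To compare genes over one distance, coding segments with their midpoint within 1200 nt of the start codon were set against those beyond it. In 2912 genes with a CDS of 1500 to 3300 nt the near part lost reads relative to the far part between Harr and Chx, with a median log2 odds ratio of −1.39, and 96.1% of genes were below 0. Of the 9 genes, 8 had enough reads and all 8 were below 0. Caprin1 was at −1.82 ± 0.08, Cpeb4 at −1.76 ± 0.15, Fmr1 at −1.56 ± 0.16, Cpeb3 at −1.52 ± 0.13 and Fxr1 at −1.38 ± 0.20. Fxr2 was at −0.86 ± 0.15, Cpeb2 at −0.55 ± 0.13 and Pum2 at −0.49 ± 0.10, with 78.1%, 88.5% and 89.5% of genes below them. Between Harr and WT these 3 were at −1.12 ± 0.15, −0.19 ± 0.13 and −0.70 ± 0.11, where the interval of Cpeb2 included 0. In Pum2 the near part includes the dense first coding segment described above, and in Cpeb2 it is the 1626-nt exon alone. Between Chx and WT the same measure was within −0.26 to 0.36 for these 8 genes. Caprin1 showed the depletion in plain counts: its coding segment 4, 239 nt long, held 2016, 1838 and 122 reads in WT, Chx and Harr, or 0.0664 Harr reads per Chx read, and its last, 65 nt long, held 219, 140 and 95, or 0.679.

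**Figure D5:**
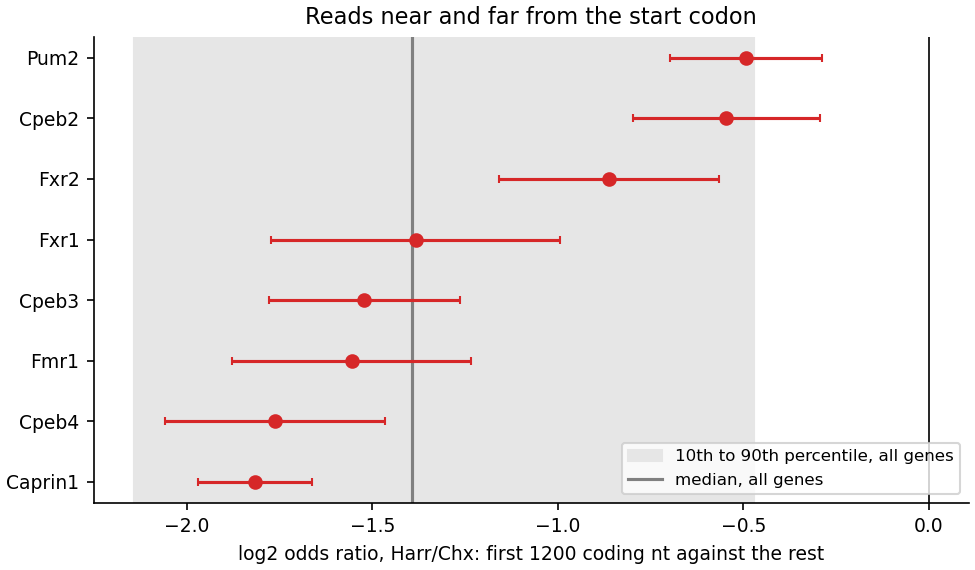
Log2 odds ratio between Harr and Chx of coding reads in segments within 1200 nt of the start codon against those beyond, with 95% counting intervals, for the 8 genes with enough reads. The grey line and band are the median and the 10th to 90th percentile of 2912 genes. All 8 genes are below 0, and Fxr2, Cpeb2 and Pum2 are nearest to it.

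The FXR genes share an exon layout, which allowed their footprints to be compared exon by exon. Coding segments 2 to 10 have the same lengths in Fmr1, Fxr1 and Fxr2 (53, 94, 72, 149, 94, 117, 171, 79 and 110 nt), and the bases are 55.3% to 81.1% identical between pairs. Segment 10, of 110 nt, was sparse in all 3 genes. It held 7, 8 and 4 reads in Fmr1 (WT, Chx, Harr), 21, 43 and 5 in Fxr1 and 8, 15 and 2 in Fxr2, and in WT its density was 0.0942, 0.258 and 0.0920 times that of the CDS. Segment 3, of 94 nt, was dense in WT in each gene, at 1.54, 2.16 and 2.36 times the CDS, and segment 4, of 72 nt, followed at 0.658, 0.902 and 0.826 times. Segment 8, of 171 nt, was between 1.44 and 1.90 times. Across the 9 shared segments in Chx, Pearson's r of relative density was 0.86 between Fmr1 and Fxr1, 0.92 between Fmr1 and Fxr2 and 0.79 between Fxr1 and Fxr2 (Spearman's rho 0.92, 0.90 and 0.80). The points are segments of the same library that share length and much of their base composition. In WT, r was 0.64 to 0.80. In Harr, where single segments held as few as 1 read, it was 0.02 to 0.60.

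The last 5 coding segments of Cpeb2, Cpeb3 and Cpeb4 also have equal lengths (90, 119, 115, 182 and 228 nt), with 76.7% to 82.4% identical bases. The last of them was the densest of the 5 in WT in each gene, with 137, 246 and 215 reads at 1.27, 0.954 and 1.17 times the CDS. In Chx the same 228 nt were at 0.757, 0.513 and 0.839 times. Over these 5 segments in Chx, Pearson's r of relative density was −0.45 between Cpeb2 and Cpeb3, −0.29 between Cpeb2 and Cpeb4 and −0.45 between Cpeb3 and Cpeb4 (Spearman's rho −0.50, −0.50 and 0.00). In WT, r was 0.43, 0.82 and 0.55, and in Harr 0.53, 0.70 and 0.21, each over 5 points of 1 library. Over all genes with a last coding segment of 60 to 300 nt, this segment held less of the CDS in Chx than in WT, with a median log2 odds ratio of −0.39 over 6280 genes. Of these genes 23.7% were above 0. Cpeb1, with 5, 3 and 1 reads in its last 99 coding nt in WT, Chx and Harr, was not compared. The 7 genes of the list that were compared were below 0, from −0.41 ± 0.26 in Pum2 to −1.62 ± 0.26 in Fmr1. The last 111 coding nt of Fmr1 held 111 reads in WT, 47 in Chx and 46 in the shallower Harr library, and 4.52% of genes lay below it.

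Cpeb2, Cpeb3 and Cpeb4 each have a coding segment of 24 nt, an alternatively used exon in the middle of the protein. These held 0, 0 and 0 reads in Cpeb2 and in Cpeb3, and 1, 0 and 0 in Cpeb4. The CDS density would have given 11.3 reads in Cpeb2, 27.1 in Cpeb3 and 19.3 in Cpeb4 in WT. The tables cannot be read as absence of this exon. Internal coding segments of 21 to 24 nt in other well-covered genes held 0.0454, 0.0479 and 0.0425 of the reads their CDS density predicts in WT, Chx and Harr, and 77.9%, 76.6% and 90.3% of 154 such segments were at 0. Segments of 101 to 200 nt held 1.00, 1.00 and 0.883 of the prediction. As a class, such short segments thus held fewer reads than their CDS density predicts. Whether skipping of these exons or loss in mapping or counting lay behind this was not tested. On another Cpeb4 transcript an exon of 51 nt beside the 24-nt one held 21, 22 and 12 reads.

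Reads on 3′ UTRs were few. Between Harr and Chx, 5 genes could be compared and all 5 were higher in Harr relative to the CDS, beside 86.5% of genes. On the most-read transcripts, and likewise on those with the longest CDS, 3 genes could be compared and 3 were higher. Caprin1 had 22, 0 and 51 3′ UTR reads in WT, Chx and Harr, which is at least 85.0-fold higher relative to the CDS in Harr than in Chx when 3 reads are taken for the 0. Pum2, with 7, 6 and 22 reads, was at 3.44 ± 0.64, Cpeb3, with 11, 4 and 14, at 3.73 ± 0.78, and Cpeb4, with 6, 4 and 9, at 2.94 ± 0.83. Fxr1 had 60, 52 and 41 reads and a value of 2.11 ± 0.31, but 154 nt of this 3′ UTR are coding sequence of another Fxr1 transcript. The member median was 3.44, also with 3 reads taken for the 0 of Caprin1, and the median over all genes was 3.76. Against WT, 5 of 7 genes were higher, beside 79.8% of genes. Between Chx and WT, 2 of 6 were lower beside 38.9% of genes, Cpeb2 at −2.31 ± 1.02 and Caprin1. With 3 reads taken for its 0, Caprin1 was 7.79-fold lower. With 0.5 added to each count, its log2 interval was −9.62 to −1.54. Fmr1 had 9, 0 and 3 reads on 2288 nt, Fxr2 3, 1 and 5, Cpeb2 10, 2 and 5, and Cpeb1 0, 0 and 4.

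Partners of these regulators were described from a list of 43 genes that act in the same complexes, such as Nanos, Cyfip, G3bp, poly(A) and decapping factors. Of 36 partners with enough 5′ UTR reads, 34 were past 2-fold higher in Harr against Chx beside 89.4% of all genes, and 1 was lower beside 0.103%, with a median of 2.48. The lower one was Lsm14b, a component of stored RNP particles, at −1.52 ± 0.24, and its value between Harr and WT was −1.22 ± 0.24. The highest was Sympk, the scaffold of the polyadenylation complex, at 4.97 ± 0.35. Its longest transcript is annotated as a nonsense-mediated decay form with a CDS of 705 nt, which held 30.9%, 29.5% and 5.19% of its reads in WT, Chx and Harr, so the Sympk values cover only part of the gene. In the CDS, 2 of 39 partners were higher between Harr and Chx beside 5.74% of all genes, and 1 was lower beside 12%. Nufip2, an FMRP-interacting protein, was highest at 1.17 ± 0.06 and Sympk lowest at −2.06 ± 0.24. With header scaling Nufip2 was at 0.62, and 0 of 39 partners were higher and 8 lower, beside 1.22% and 27.9% of all genes. Eif4enif1, which binds the cap-binding factor, had the highest 5′ UTR value between Chx and WT at 4.40 ± 0.93, from 61 reads in Chx and 2 in WT. In that pair 16 of 36 partners were higher beside 30.3% of all genes.

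A list of 20 textbook target mRNAs of FMRP, CPEB or Pumilio was described likewise. Of 18 with enough 5′ UTR reads, 16 were past 2-fold higher in Harr against Chx beside 89.4% of all genes, and none was past 2-fold lower beside 0.103%, with a median of 2.26. The values ran from 0.96 ± 0.21 in Dlgap3, a postsynaptic scaffold, to 4.01 ± 0.09 in Cdkn1b, a cell cycle inhibitor known as a Pumilio target. In the CDS, Shank3, a postsynaptic scaffold with a long CDS, was the 1 of 19 targets higher in Harr, at 1.06 ± 0.08, beside 5.74% of all genes, and 2 were lower beside 12%, Cdkn1b lowest at −1.14 ± 0.06. With header scaling Shank3 was at 0.51, and 0 of 19 targets were higher and 5 lower, beside 1.22% and 27.9% of all genes. Arc, an immediate early gene, was the 1 target past 2-fold in the CDS between Chx and WT, at 1.05 ± 0.13, beside 0.684% of all genes higher and 0.845% lower.

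The genes most like each of the 9 were sought over 9 log2 values, the read densities of the 3 regions in the 3 libraries, among 10415 genes, by the smallest Euclidean distance. They were Naa15 and Sp3 for Fmr1 (distances 1.61 and 1.66), Amz2 and Tbpl1 for Fxr1 (1.64 and 1.65), and Dlg3 and Fbxl17 for Fxr2 (1.66 and 1.79). For the CPEB genes they were Bag4 and Zbtb45 for Cpeb2 (1.49 and 1.61), Pmpca for Cpeb3 (1.38), and Galnt17 and Ptrh2 for Cpeb4 (1.24 and 1.29). Pum2 was nearest to Eif4g3 and Fam98a (0.96 and 1.00), and Caprin1 to Cdc37 and Syn2 (2.21 and 2.75). Cpeb1 had too few 5′ UTR reads to enter, and no member was among the nearest pair of another. Shared sequence was small in the coding regions: the CDS of Fxr1 had 5.99% of its 25-base words in a transcript of Gm17795, and those of the other 8 genes had under 1% in any other gene.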

How the data were processed

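The authors deposited 9 tables, 1 per library and region, with a line per exon segment of each transcript as written by Plastid. The deposited counts are whole numbers of reads. The tables also hold a coverage signal, deposited as reads per nucleotide, and a deposited RPKM column scaled to the reads of the library. Neither was used here, since RPKM was recomputed from counts. Per the file headers, reads of 25 to 100 nt were counted at the 5′ end with offset 0, on mm10 alignments without ribosomal and duplicate reads. The study's methods name TopHat for its search for open reading frames, with reads of several placements kept, and Rsubread where counting with Plastid is described. Which aligner made these tables is not given in the sources used here. Counts were summed per transcript and region, and symbols came from GENCODE M21, with 99.1% of 142446 identifiers matched. The group of each library came from its recorded treatment, because the free-text descriptions name fractions of another experiment.

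The log2 values had 0.5 added to each count and carry counting intervals (normal for log2 values, Poisson for levels, Wilson for shares). These intervals cover counting error only, and fold values with the floor of 3 reads in place of a 0 carry no interval. PCR reads need not be independent molecules. The changes of each region between libraries were computed over all genes with numpy 2.4.6, pandas 2.3.3 and scipy 1.17.1. Only the 5′ UTR comparison of Harr against Chx was also run on simulated counts, drawn at equal depth for all libraries. The genes, partner and target lists were chosen with earlier results of these data known, and the text names every member, the lowest and highest gene of a list, and the nearest 2 genes (1 for Cpeb3, where the other is not reported here). The segment comparisons, the near and far split and the exon-by-exon comparison of paralogs were added after their values were seen. Sequences are from GENCODE transcripts. For Cpeb2 the counted transcript version has no sequence here, and a transcript with the same 5′ UTR and start codon was used.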

Additional observations from a re-analysis of the deposited data

How the results depend on the processing

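No paired analysis was possible because each treatment has 1 library, and no library could be left out. Other transcripts, a pseudocount of 5, other scalings, 5′ UTR reads only from exons upstream of the start exon, and minimums of 0 or 50 reads were tried. The 5′ UTR of Fxr2 was lower by 2-fold in Harr against Chx with either pseudocount (−1.30 and −1.19) and each minimum. Fxr2 has 1 transcript with all 3 regions and no upstream 5′ UTR exon, so those settings do not bear on it.
With header scaling the CDS median was −0.029 (Harr/Chx) and −0.16 (Harr/WT), and the count of genes past 2-fold was 0 in both pairs. With size factors no count changed. With upstream exons only, 3 genes remained, with medians of 2.05 (Harr/Chx), 2.58 (Harr/WT) and 1.94 (Chx/WT). In that setting 2 and 3 were higher in the Harr pairs and 0 lower, and Cpeb3 between Chx and WT turned to 1.94. The cause of these shifts was not tested.
Between Chx and WT, 1 gene was higher in the 5′ UTR on the most-read transcripts and 1 at 50 reads. Counts of 3′ UTR calls between Harr and Chx were 3 on the most-read and 3 on the longest-CDS transcripts, 9 without a minimum and 2 at 50 reads. At 50 reads they were 2 (Harr/WT) and 0 (Chx/WT), where fewer genes were compared. The median level was 26.1, 23.6 and 25.5 RPKM in WT, Chx and Harr, and 47.4, 41.7 and 65.8 per 1000000 CDS reads. A border at 900 nt, chosen after seeing the data, did not move the near and far medians beyond their counting error. Header scaling of the partner and target lists was also added after seeing the data. Reads were few for Cpeb1, for the 3′ UTRs and for the 5′ UTR of the longest Fxr1 transcript.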
